A study of Rattus norvegicus with 30 samples.

Results

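H4K16Ac domains far from H3K4me3 are stretches of the embryonic rat cortex genome that carried acetylated lysine 16 of histone H4 with no H3K4me3 close by. They were selected on the deposited interval lists alone. A domain had to be an interval of the control H4K16Ac list of 1500 to 4999 bp, with no H3K4me3 interval of either diet within 2500 bp of its edges, and with at least 1 bp in common with an H4K16Ac interval of the high-fat diet (HFD) list. These criteria selected 4244 of the 173786 control H4K16Ac intervals, or 2.44% (95% Wilson interval 2.37 to 2.52), and 10.2% of the 41439 intervals in that width range. The 4 lists of H4K16Ac and H3K4me3 therefore chose the domains, and what those lists show at them is a description. The 6 lists of total H3, pan H4 and H3K27me3 had no part in the choice.

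The data were ChIP-seq of brain cortex from Wistar rat embryos of embryonic day 14.5. Control mothers had been fed normal chow and HFD mothers a diet with 60% of its calories from fat, before and during pregnancy, and both were mated with chow-fed males. Per the study's methods, the cortices of a whole litter were combined for each biological replicate of the molecular work. The antibodies recognised H4K16Ac, H3K4me3, H3K27me3, all forms of H4 (pan H4) or all forms of H3 (total H3), and each was used on 3 control and 3 HFD libraries, 30 in all. The 3 libraries of a group were pooled in 1 list of enriched intervals, so each of the 10 groups gives 1 value without a replicate error. No test between diets or between kinds of domain was possible, and the 95% intervals of shares given here cover counting error only. The tissue mixes progenitors, young neurons and other cells. A change in the share of cells that carry a mark and a change in the mark within each cell cannot be told apart.

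Acetylation of lysine 16 on the tail of histone H4, placed largely by the enzyme KAT8 (MOF), weakens contacts between neighbouring nucleosomes and marks open, active chromatin at promoters, gene bodies and enhancers. H3K4me3 marks the starts of active genes, so H4K16Ac without it is found away from such starts. H3K27me3 is placed by EZH2, the catalytic subunit of the Polycomb repressive complex PRC2, and marks silenced developmental genes. Total H3 and pan H4 antibodies bind the histones whatever their modification, and their intervals follow where nucleosomes were recovered.

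The strength of an interval is given as −log10 of its q value, the peak caller's false discovery rate, and as fold enrichment over the local background. Both are averages over the whole interval in the broad lists of H4K16Ac and H3K27me3, and values at the summit, the highest point, in the narrow lists of H3K4me3, total H3 and pan H4. The lists were long and permissive: the least certain intervals had q near 0.5, between 0.480 and 0.500 in the 10 lists. The background pileup, a measure of depth recovered from the lists, was 0.880 reads in control and 0.351 in HFD for H3K27me3, or 39.9% of control. HFD had 87.7% of the control pileup for H3K4me3, 109% for H4K16Ac, 110% for pan H4 and 111% for total H3. The part of these depths in the differences between diets was not tested. Of the 3 libraries of control total H3, the one numbered 3 bears an HFD treatment label against its title, so the control total H3 list is the list so labelled.

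Far domains were weak members of the H4K16Ac list. Their width had a median of 1943 bp (quartiles 1677 and 2465) and ran up to 4943 bp. Their control −log10 q had a median of 1.91 and ran from 0.381 to 19.4, whereas all control H4K16Ac intervals had a median of 2.70. Near domains, the 35043 intervals of the same widths that overlapped an HFD interval but had H3K4me3 within 2500 bp, had a median of 2.73 and a median width of 2187 bp. Only 42 far domains (0.990%) reached −log10 q of 5 in the control list, against 6467 near domains (18.5%). Fold enrichment was less far apart, with medians of 2.76 in far domains, 2.92 in near domains and 3.14 in all intervals. On the scale of ranks within its own list, the median far domain stood at the 31.2 percentile in control and at the 36.3 percentile in HFD. These ranks are not on equal terms, as the HFD rank is that of the strongest overlapping interval of any width. With the diets exchanged in the criteria, the median −log10 q was 1.86 for the HFD domains and 2.04 for the strongest overlapping control interval.

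The frequency of isolation fell with the width of the interval. Among control H4K16Ac intervals under 1500 bp, 32.1% had no H3K4me3 within 2500 bp, against 12.8% of those of 1500 to 4999 bp. Of the 1271 intervals of 5000 bp or more, 30 were isolated, or 2.36% (1.66 to 3.35).

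The narrowest domain, chr11:25138356-25139855, was 1500 bp wide with −log10 q of 0.951, and an isolated interval of 1499 bp just outside, chr10:47276335-47277833, had 2.78. At the upper limit, chr17:12330353-12335295 was inside with 4943 bp and −log10 q of 1.16, and chr17:18226941-18232032 outside with 5092 bp and 0.858. The domain nearest to H3K4me3, chr1:56673249-56675097, had it 2501 bp away and −log10 q of 1.87, and chr5:137241448-137243034, with H3K4me3 2500 bp away and −log10 q of 3.01, was left out.

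Most domains lay within a few kilobases of the distance limit. The nearest H3K4me3 interval of either diet was a median of 4850 bp away, 51.8% of domains had one within 5000 bp, 81.5% within 10000 bp and 94.2% within 20000 bp. It came from the control list for 56.0% of domains and from the HFD list for 43.4%. The H3K4me3 lists were long, with 113056 control and 107919 HFD intervals, of which 31019 and 31060 reached −log10 q of 5. Counted to those stronger intervals alone, the median distance was 17146 bp. If only the stronger H3K4me3 intervals had been allowed to disqualify a domain, 27077 instead of 4244 would have qualified, so the number of far domains depends on the weak H3K4me3 intervals of the lists.

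The domains lay apart from each other but not from H4K16Ac. The nearest other far domain was a median of 98961 bp away, whereas another control H4K16Ac interval of any kind was within 20000 bp of 96.7% of far domains, with a median distance of 3452 bp. Near domains were alike in this respect, with another interval within 20000 bp of 95.5% and a median distance of 3282 bp. No other control H4K16Ac interval lay closer than 1194 bp to a domain of either kind, in lists whose caller joins nearby enriched stretches into 1 broad interval. Linked at 20000 bp, 3547 far domains stood alone, 578 formed 289 pairs, 99 formed 33 groups of 3, and 20 formed 5 groups of 4. The tightest group of 4, chr5:145556494-145571259, placed 4 domains of 1587 to 2658 bp in 14766 bp. Of its domains, 3 had total H3 in control and 4 in HFD, 3 had pan H4 in each diet, and none had H3K27me3. A group of 4 at chr20:30226440-30273410 held a domain of 4913 bp, pan H4 at all 4 domains in both diets, and H3K27me3 at 2 of them in control and at 0 in HFD.

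Far domains were spread over all chromosomes except Y, which had 0 of 8 intervals in the width range. On the autosomes they were 8.50% (chromosome 19) to 12.4% (chromosome 17) of the intervals in that range, and on X 7.76%, or 45 of 580. Their density ran from 0.281 per Mb on X to 3.79 per Mb on chromosome 12, which was also the chromosome richest in H4K16Ac intervals of that width (40.0 per Mb) and in H3K4me3 intervals (154 per Mb). A further 13 domains lay on 12 unplaced sequences.

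HFD H4K16Ac covered the far domains unevenly. Coverage of a domain by HFD intervals had a median of 57.8% and ran from 0.503% to 100%. Coverage under 30% was found at 1278 domains (30.1%), over 90% at 1325 (31.2%) and between these at 1641 (38.7%). In steps of 5%, 993 domains (23.4%) were covered to at least 95%, and 368 (8.67%) to between 20% and 25%, with fewer in each step between. At least 1 bp of overlap was asked for, and the smallest overlap was 11 bp. A single HFD interval overlapped 3940 domains, 2 overlapped 303, and 3 overlapped 1. Together these HFD intervals measured a median of 1461 bp, reached 1500 bp at 2045 domains (48.2%), and were wider than the control interval at 983 (23.2%).

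Because the criteria took widths of 1500 bp and more from the control list, HFD intervals at the domains were free to be narrower. The same criteria with the diets exchanged selected 3708 domains from the HFD list, 0.874 times the control number, and gave a similar picture in the opposite direction. These HFD-started domains were covered by control H4K16Ac to a median of 70.9%, and control intervals were wider than the HFD interval at 1164 of them (31.4%). Of the far domains, 1844 (43.4%) overlapped an HFD-started domain. Shorter HFD intervals at far domains are thus in part a product of the list from which the domains were taken, and coverage says little of a difference between diets.

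**Figure D1:**
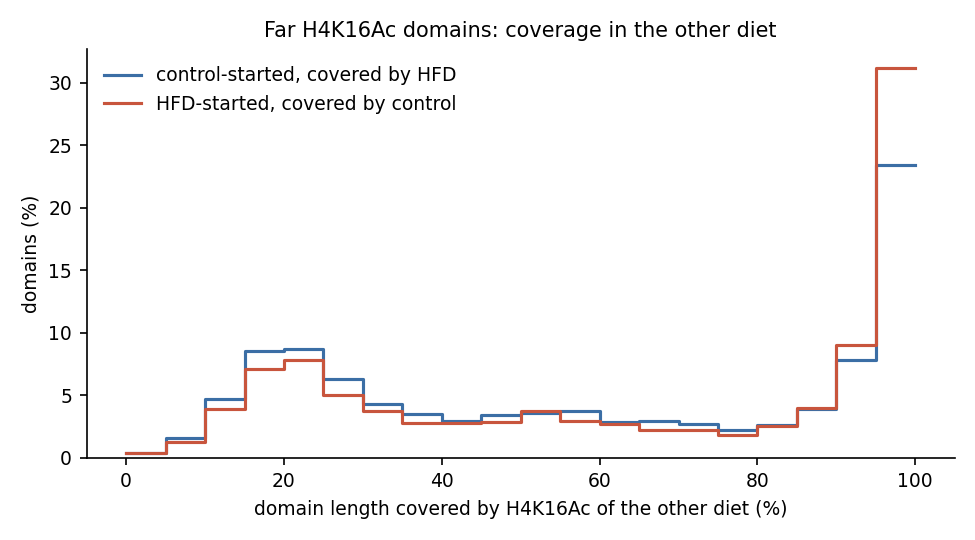
Share of far domains, in percent, by how much of the domain is covered by H4K16Ac intervals of the other diet, in steps of 5%, for the domains started from the control list and for those started from the HFD list. Both distributions have a low mode near 20% and a high mode at 95% to 100%, with 23.4% and 31.1% of domains in the highest step.

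Isolated control domains were matched less often in HFD than near ones. Of 5298 intervals of the width range without H3K4me3, 80.1% (79.0 to 81.2) had an HFD H4K16Ac interval, and of the 36141 with H3K4me3 97.0% (96.8 to 97.1). The 1054 isolated intervals with no HFD counterpart were weaker, with a median −log10 q of 1.31, and narrower, with a median of 1739 bp. Fewer of them had total H3 (38.7% in control, 27.6% in HFD), pan H4 (49.1% and 35.3%) or H3K27me3 (3.42% and 4.17%) than the far domains described next.

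Total H3, pan H4 and H3K27me3 were read at the far domains by whether an interval of each list overlapped the domain by 1 bp or more. In control, total H3 was present at 3163 far domains, or 74.5% (73.2 to 75.8), against 71.1% of all control H4K16Ac intervals. In HFD it was present at 3086, or 72.7% (71.4 to 74.0), against 70.8% of all. The far domains were close to that background, although they are wider than most intervals of the list. Near domains of the same width range had total H3 at 93.0% in control and 93.7% in HFD. The far domains were 18.4 points lower in control (95% Newcombe interval of the difference −19.8 to −17.1).

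Pan H4 was present at 3297 far domains in control, or 77.7% (76.4 to 78.9), and at 3490 in HFD, or 82.2% (81.1 to 83.4). All control H4K16Ac intervals had 74.7% and 77.2%, and near domains 93.8% and 96.7%. The difference between far and near domains in control was −16.1 points (−17.4 to −14.9). The number of far domains with pan H4 was 1.06 times as high in HFD as in control, beside 1.03 for near domains.

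H3K27me3 was present at 525 far domains in control, or 12.4% (11.4 to 13.4), and at 464 in HFD, or 10.9% (10.03 to 11.9). All control H4K16Ac intervals had 29.6% and 21.2%, and near domains 52.1% and 37.3%. The difference from near domains was −39.8 points in control (−40.9 to −38.6) and −26.3 in HFD (−27.4 to −25.2). Over all listed intervals this was the widest of the 3 differences in control, but the order in points turned with stricter counting. With lists cut at −log10 q of 5 the control differences were −35.4 points for total H3, −34.2 for pan H4 and −14.7 for H3K27me3, and where 50% of the domain had to be covered they were −21.7, −24.2 and −18.0. A difference in points cannot exceed the near share. With lists cut at 5, near domains had 56.4%, 50.2% and 14.8% in control, and far domains 21.0%, 16.02% and 0.0236%. Relative to its near share, H3K27me3 was thus still the lowest of the 3 at far domains.

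**Figure D2:**
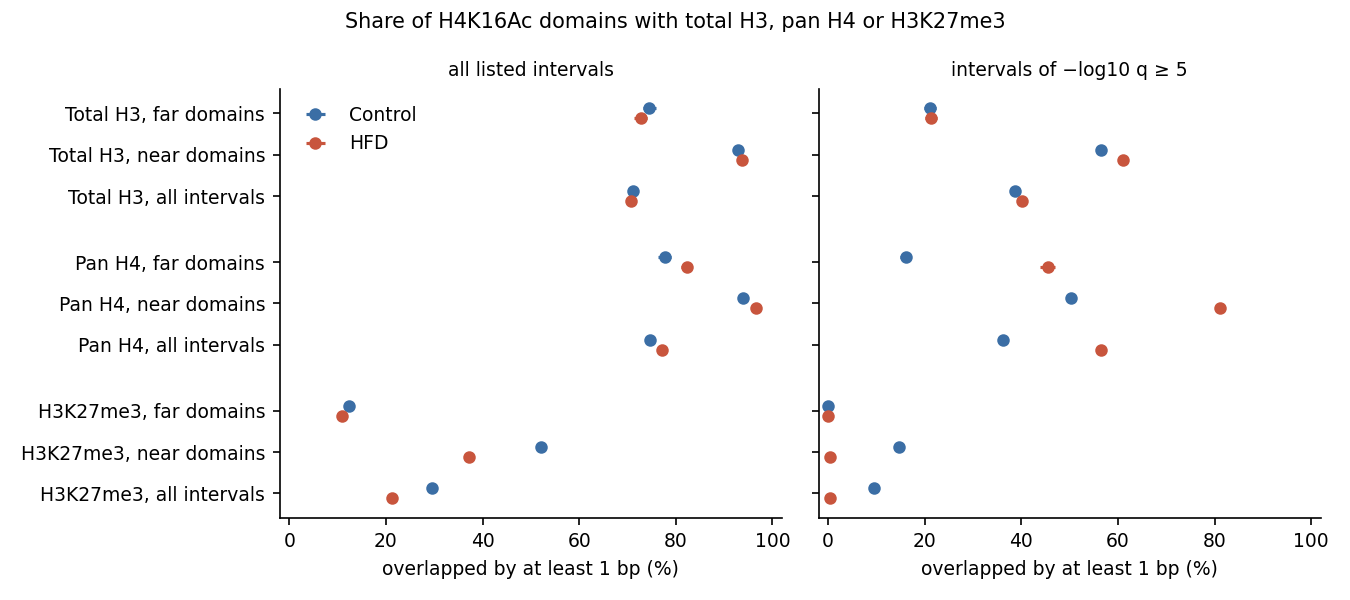
Share of domains, in percent, that overlap an interval of total H3, pan H4 or H3K27me3 in control and in HFD, for far domains, near domains and all control H4K16Ac intervals, with 95% Wilson intervals (counting error only), counted over all listed intervals (left) and over those of −log10 q of 5 or more (right). On the left, far domains lie near all intervals for total H3 and pan H4 and below both other sets for H3K27me3, at 12.4% in control and 10.9% in HFD.

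Part of the distance between far and near domains went with the strength of the H4K16Ac interval. Of the far domains, 2298 had a control −log10 q under 2, and among these total H3 was present at 69.1% in control and 65.7% in HFD, pan H4 at 73.0% and 75.5%, and H3K27me3 at 10.7% and 10.2%. Near domains of that strength had 83.7% and 85.9% for total H3, 85.2% and 91.4% for pan H4, and 32.9% and 22.4% for H3K27me3. At −log10 q of 3 to 5, the 616 far domains had total H3 at 82.1% and 84.3%, pan H4 at 86.7% and 91.7%, and H3K27me3 at 14.3% and 10.2%. The near domains of 3 to 5 had 97.4% and 97.5%, 97.8% and 99.1%, and 57.1% and 37.2%. Among near domains H3K27me3 in control climbed with the strength of H4K16Ac, from 32.9% under 2 to 96.7% at 8 and more. In far domains it went from 10.7% to 14.3% between under 2 and 3 to 5, and was present at 4 of the 36 far domains of 5 to 8 (11.1%) and at 3 of the 6 of 8 and more.

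**Figure D3:**
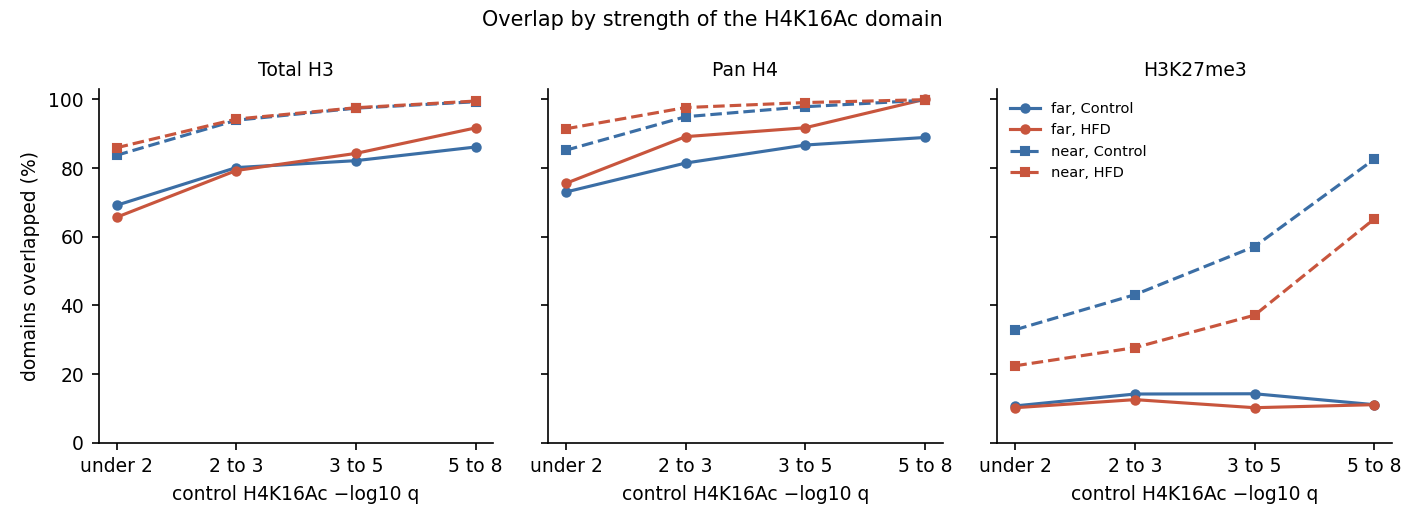
Share of far domains (circles, solid lines) and near domains (squares, dashed lines), in percent, that overlap an interval of total H3, pan H4 or H3K27me3 in control and in HFD, by the control H4K16Ac −log10 q of the domain (under 2 to 8). Total H3 and pan H4 climb with strength in both sets, while H3K27me3 climbs in near domains, from 32.9% to 82.6% in control, and lies between 10.2% and 14.3% in far domains.

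Width moved the shares as well. From the 2281 far domains under 2000 bp to the 468 of 3000 bp and more, total H3 in control went from 69.0% to 87.4%, pan H4 from 73.7% to 88.0% and H3K27me3 from 9.03% to 20.7%. A wider domain has more bases on which an interval can fall. Near domains of 3000 bp and more had 97.1%, 96.9% and 60.1%. Distance to H3K4me3 went with smaller shifts in control. In control, total H3 was present at 76.9% of the 2197 domains within 5000 bp of H3K4me3 and at 69.9% of the 539 at 10000 to 20000 bp, and H3K27me3 at 14.7% and 6.86%. At the 201 domains of 20000 to 50000 bp and the 40 farther ones, total H3 in control was present at 65.2% and 62.5%. H3K27me3 in control was present there at 11.4% and 12.5%, above the 6.86% at 10000 to 20000 bp. The HFD shares had another order. From the class of 5000 to 10000 bp outwards, total H3 in HFD was present at 72.6%, 64.6%, 70.1% and 72.5%, with no steady fall. Over the same classes H3K27me3 in HFD was present at 9.82%, 7.05%, 7.46% and 2.5%, lowest at the 40 farthest domains. The H3K27me3 shares of those 40 rest on very few domains in either diet. They do not show a trend with distance that differs by diet, and none was tested. Pan H4 in control had 76.3%, 81.2%, 75.9%, 74.6% and 77.5% over the 5 distance classes, in no order.

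Some far domains carried total H3 in control alone and others in HFD alone. Total H3 was present in both diets at 2501 domains (58.9%), in control only at 662 (15.6%), in HFD only at 585 (13.8%) and in neither at 496 (11.7%). Of all control H4K16Ac intervals, 60.0% had total H3 in both diets, 11.0% in control only, 10.8% in HFD only and 18.2% in neither. Of the far domains with total H3 in control, 79.1% had it in HFD, against 95.3% of near domains and 84.5% of all intervals. Pan H4 was present in both diets at 2836 (66.8%, against 65.9% of all intervals), in control only at 461 (10.9%, against 8.83%), in HFD only at 654 (15.4%, against 11.3%) and in neither at 293 (6.90%, against 13.97%). It was kept in HFD at 86.0% of the far domains that had it in control, at 97.8% of the near ones and at 88.2% of all intervals. A kept share depends on how common the antibody's intervals were in HFD. Total H3 was there at 72.7% of far and 93.7% of near domains, and pan H4 at 82.2% and 96.7%.

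H3K27me3 at far domains was mostly not at the same domains in both diets. It was found in control only at 447 domains (10.5%, against 14.6% of all intervals), in HFD only at 386 (9.10%, against 6.15%), and in both at 78 (1.84%, against 15.0%), while 3333 (78.5%, against 64.2%) had none. Of the 525 with H3K27me3 in control, 14.9% had it in HFD, whereas 54.7% of near domains and 50.7% of all intervals kept it. A kept share depends on how common the mark was in HFD. It was there at 10.9% of far domains, 37.3% of near domains and 21.2% of all intervals. The number in HFD was 0.884 times that in control at far domains and 0.715 times at near domains. With both lists cut to the same number of intervals, strongest first, the ratio at far domains was 1.31, so its direction depends on the length of the lists. Beside these values stand the lower HFD depth of H3K27me3 and the low strength of the intervals. At the 78 domains with the mark in both diets the median −log10 q was 0.901 in control and 0.781 in HFD, which are q values over 0.1, at median percentiles of 23.0 and 32.9 of their lists.

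At a stricter threshold, the far domains divided by antibody. Total H3 intervals of −log10 q of 5 or more were present at 891 far domains in control (21.0%) and 903 in HFD (21.3%), against 38.6% and 40.2% of all control H4K16Ac intervals. Pan H4 intervals of that strength were present at 680 in control (16.02%) and 1928 in HFD (45.4%), against 36.1% and 56.5% of all, so the number was 2.84 times as high in HFD. The same ratio was 1.62 at near domains and 1.57 over all intervals. Near domains had strong pan H4 at 50.2% in control and 81.1% in HFD. It was found in HFD only at 34.2% of far domains, 33.4% of near domains and 24.0% of all intervals. The larger ratio at far domains thus came with a smaller control share. H3K27me3 of that strength was present at 1 far domain in control (0.0236%) and at 0 in HFD, which allows a share of up to 0.0904% (Wilson), against 9.48% and 0.326% of all intervals. Near domains had it at 14.8% and 0.360%. Taking from the HFD list as many of the strongest H3K27me3 intervals as control had at that threshold, again chosen after seeing the data, turned the order, with 45 far domains in HFD and 1 in control.

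Strong pan H4 intervals were also more numerous in the HFD list as a whole. It held 114269 pan H4 intervals at −log10 q of 5 or more and the control list 67714. When only as many of the strongest intervals were taken from each diet as control had at that threshold (an alternative chosen after seeing the data), 680 far domains had pan H4 in control and 633 in HFD, a ratio of 0.931. At the 2836 domains with pan H4 in both diets, the median −log10 q was 3.16 in control and 5.80 in HFD, and it was higher in HFD at 77.1% of them. The median fold enrichment was 3.41 and 4.29. By percentile within its own list, however, the medians were 46.6 and 47.7, and HFD stood higher at 51.0% of these domains. Ranked against the other pan H4 intervals of the same diet, those at far domains thus stood at about the same place. For total H3, the 2501 domains with both had median −log10 q of 3.93 and 3.59 and fold enrichment of 4.01 and 4.05, with HFD higher in −log10 q at 47.5%.

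**Figure D4:**
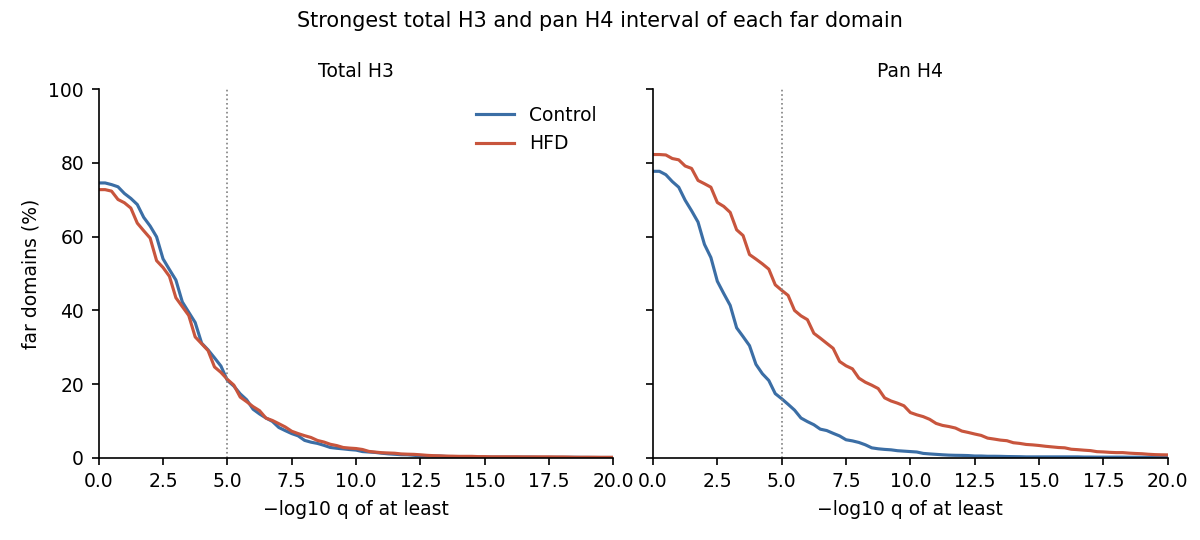
Share of the 4244 far domains, in percent, that overlap an interval of at least a given −log10 q, for total H3 (left) and pan H4 (right) in control and HFD, with the threshold of 5 as a dotted line. The total H3 curves run close together (21.0% and 21.3% at 5), and the pan H4 curve of HFD lies above that of control (45.4% and 16.02% at 5).

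Domains that had strong pan H4 in HFD also more often had the other features. Strong pan H4 was present in both diets at 476 domains, in control only at 204, in HFD only at 1452 and in neither at 2112. Among the 1452, strong total H3 was present at 27.3% in control and 32.0% in HFD, among the 476 at 53.2% and 52.7%, and among the 2112 at 9.94% and 6.96%. Control H4K16Ac had a median −log10 q of 2.67 in the 476, 2.12 in the 1452, 2.08 in the 204 and 1.60 in the 2112. HFD H4K16Ac covered a median of 68.7% of the 1452 and 50.6% of the 2112. H3K27me3 of any strength was present in control at 20.4% of the 476, 15.98% of the 1452 and 8.14% of the 2112. Strong pan H4, strong total H3 and stronger H4K16Ac therefore tended to stand at the same domains.

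The 1325 domains that HFD H4K16Ac covered by over 90% and the 1278 it covered by under 30% differed in the same manner. Total H3 was present at 80.3% of the former and 65.8% of the latter in control, and at 82.3% and 59.9% in HFD. Pan H4 was present at 81.1% and 71.7% in control, and at 89.1% and 73.3% in HFD. H3K27me3 was present at 16.5% and 7.51% in control and at 14.4% and 6.65% in HFD. The control H4K16Ac −log10 q of the 2 groups had medians of 2.05 and 1.82, and their widths medians of 1835 and 1882 bp. The HFD H4K16Ac −log10 q had medians of 2.05 and 2.21, in the opposite order.

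Taking the 6 lists that did not choose the domains as a pattern, 1440 domains (33.9%) had total H3 and pan H4 in both diets and no H3K27me3, the most frequent combination. All 6 lists had an interval at 59 domains, and none of the 6 at 117 (2.76%). Total H3 and pan H4 were present in both diets, whatever H3K27me3 did, at 2026 domains (47.7%), against 84.5% of near domains and 53.2% of all control H4K16Ac intervals. No total H3 or pan H4 interval of either diet was found at 122 far domains (2.87%), against 0.459% of near domains and 9.10% of all. Those 122 had a median control −log10 q of 1.32, a median width of 1767 bp and 24.3% of their length covered by HFD H4K16Ac. The 2026 had 2.15, 2081 bp and 70.0%.

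Within the domains, total H3 and pan H4 filled short stretches. Total H3 intervals covered 19.8% of the bases of far domains in control and 18.7% in HFD, against 2.36% and 2.26% of the bases in the 2500 bp on either side. Pan H4 covered 22.7% and 24.4% inside and 3.23% and 2.86% outside. H3K27me3 covered 3.77% and 2.54% inside and 0.648% and 0.773% outside. These flanks are not a neutral background. The criteria kept H3K4me3 out of them, and no other control H4K16Ac interval lay closer than 1194 bp. Per 100 far domains and 250 bp, control total H3 had 6.27 summits at 125 bp after the centre. It had 0.872 at 2125 bp and 4.69 at 4875 bp, so the low stretch was local. At near domains the inside values were higher, at 37.2% and 37.1% for total H3, 39.8% and 43.5% for pan H4 and 23.1% and 12.3% for H3K27me3.

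The summits of total H3 and pan H4 lay towards the edges of far domains. With each domain divided in 3 equal stretches, 40.3% of the 4333 control total H3 summits fell in the first, 19.7% in the middle and 39.9% in the last. For the 5227 HFD pan H4 summits these shares were 39.7%, 20.5% and 39.8%. Within 250 bp of an edge lay 49.97% of the total H3 summits in control and 50.3% in HFD, and 48.6% and 50.8% of the pan H4 summits, although those bases make up 23.2% of the domains. At near domains 31.3% to 33.6% of summits lay there, in 20.7% of the bases. The broad intervals of H4K16Ac were built by joining enriched stretches, so an interval starts and ends at enrichment, and the part of this in the position of the summits was not tested.

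**Figure D5:**
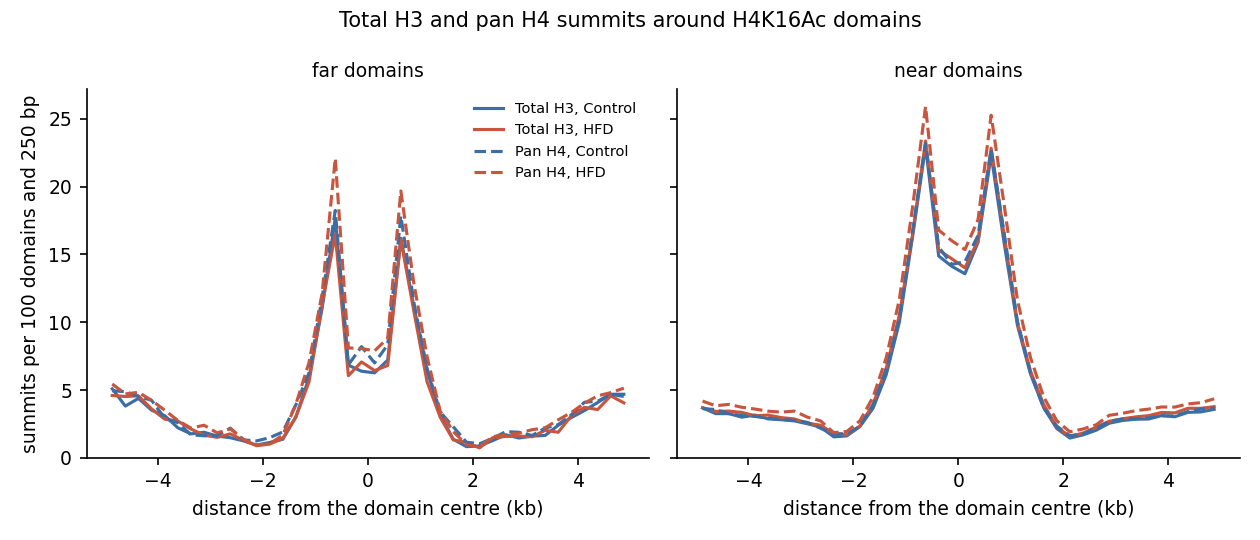
Summits of total H3 and pan H4 intervals per 100 domains and 250 bp, against the distance from the domain's centre in kb, for far domains (left) and near domains (right) in control and HFD. Both panels have a peak on each side of the centre at about 625 bp, and at far domains pan H4 in HFD reaches 22.1 there, and the centre lies between 6.27 and 8.20.

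Far domains held fewer summits than near ones. At least 2 total H3 summits were found in 25.7% of far domains in control and 24.0% in HFD, and at least 2 pan H4 summits in 28.6% and 34.2%, against 56.7% to 66.6% of near domains. A control total H3 summit at a far domain had the nearest HFD summit a median of 114 bp away, and a control pan H4 summit 85 bp away, against 66 and 57 bp at near domains. The nearest pan H4 summit was a median of 120 bp from a total H3 summit in control and 50 bp in HFD, against 75 and 47 bp at near domains. Far domains held 4624 pan H4 summits in control and 5227 in HFD, and more summits shorten such a distance. Of the control total H3 summits, 48.4% had an HFD summit within 100 bp and 60.3% within 500 bp.

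The domain with the highest H4K16Ac in control was chr8:91571555-91573058, of 1504 bp. Its −log10 q was 19.4 in control and 21.9 in HFD, and HFD H4K16Ac covered 93.7% of it. It also had the highest pan H4 of any far domain, with −log10 q of 62.5 in control and 107.7 in HFD and fold enrichment of 17.5 and 23.0, from 1 interval of 446 bp and 1 of 298 bp. Neither total H3 nor H3K27me3 was listed there in either diet. This pairing of the strongest pan H4 with no total H3 set it apart from the next domains.

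The domain chr1:269483-270989 near the start of chromosome 1 was the only one with strong H3K27me3. There H3K27me3 had −log10 q of 19.4 and fold enrichment of 7.77 in control over 90.5% of the domain, and no interval in HFD. H4K16Ac in the same 1507 bp had −log10 q of 13.2 in control and 49.1 in HFD, with fold enrichment of 5.08 and 7.74. Total H3 had −log10 q of 8.13 in control and 3.05 in HFD, and pan H4 was not listed in control and 8.42 in HFD. H4K16Ac was thus higher in HFD, and H3K27me3 listed in control only, at this domain, with 1 pooled value for each. The HFD H3K27me3 list had 39.9% of the control background pileup. It held 594 intervals of −log10 q of 5 or more, against 16607 in control.

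The domain with the highest total H3, chr10:103658401-103660964, carried total H3, pan H4 and H3K27me3 in control. Its total H3 −log10 q was 42.2 in control and 56.4 in HFD, pan H4 was 38.1 and 42.9, and H4K16Ac was 11.9 and 6.28. H3K27me3 was listed in control at −log10 q of 1.01 and not in HFD. At chr9:106111341-106112845 total H3 was 25.8 and 29.6, pan H4 20.2 and 26.7, and H4K16Ac 8.42 and 5.83, with no H3K27me3. At both domains H4K16Ac was lower in HFD while the histones were higher. The HFD H4K16Ac interval at the first was 3997 bp wide against 2564 bp in control, so its averages are over unequal lengths, and at the second 1496 against 1505 bp.

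The fifth and the sixth domain by control H4K16Ac were unlike each other. At chr7:26300440-26301965 H4K16Ac had −log10 q of 8.19 in control and 8.21 in HFD, total H3 12.6 and 12.9, and pan H4 14.3 and 24.0. H3K27me3 was listed there in control at −log10 q of 0.864, over 81.7% of the domain, and not in HFD. At chr4:182017873-182020179 H4K16Ac went from 8.08 over 2307 bp in control to 55.3 in HFD, the highest HFD value of any far domain, from an interval of 1140 bp that covered 49.4% of the domain. An average over a narrower interval is not diluted by its flanks, so these values are not on equal terms. Total H3 at this domain was 2.81 in control and not listed in HFD, and pan H4 was not listed in either diet. The strongest HFD H4K16Ac of the set thus had no histone interval of that diet under it.

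Further domains came up for their total H3 or pan H4. At chr4:180214738-180216891 total H3 was 24.6 in control and 22.8 in HFD and pan H4 27.8 and 35.3, on an H4K16Ac of 3.31 and 8.25. At chr2:33182295-33183886 total H3 was 14.4 and 32.1, pan H4 21.0 and 31.6, and H4K16Ac 7.20 and 11.0. All were listed for both diets, and neither had H3K27me3. The HFD H4K16Ac interval was narrower than the control one, 1445 against 2154 bp at the first and 416 against 1592 bp at the second. The H4K16Ac averages of the 2 diets are therefore not on equal terms at either domain.

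H3K27me3 at the other domains was weak. After the domain on chromosome 1, the highest control values were 4.14 at chr10:16875055-16878128 and 3.98 at chr7:116637454-116640054. In HFD the first of these had 0.514 and the second none. The highest HFD values were 2.10 at chr13:104671131-104674377, 1.99 at chr20:18427400-18430116 and 1.97 at chr10:61231300-61235599. In control these had 1.18, none and none.

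The domains farthest from any H3K4me3 were chr1:273144041-273145733, at 189836 bp, chr15:845892-847561, at 167702 bp, and chrX:51034277-51037905, at 132441 bp. Their H4K16Ac was 2.22 and 2.23, 2.84 and 4.74, and 2.56 and 3.14 in control and HFD, all above the median of the set. Pan H4 was listed at the first and the third in both diets, at 5.55 and 3.75 and at 5.39 and 5.44, and at the second in HFD only, at 7.96. Total H3 was not listed at the first, 3.93 and 4.46 at the second, and 3.07 and 5.55 at the third. None of these domains had H3K27me3.

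The 3 widest and the 3 narrowest HFD counterparts both included a domain with neither total H3 nor pan H4. HFD H4K16Ac intervals of 10594 bp at chr3:2732093-2733953, 10096 bp at chr13:35434619-35436275 and 9597 bp at chr3:153592805-153595408 covered their domains wholly, with −log10 q of 1.76, 1.30 and 2.23. Total H3 was not listed at the first or the second in either diet. At the third it was not listed in control and 3.24 in HFD. Pan H4 was not listed at the first in either diet, not listed in control and 0.321 in HFD at the second, and 0.431 in control and 6.18 in HFD at the third. H3K27me3 was listed only at the second, in HFD, at 0.397. The narrowest counterparts were of 293 bp, at chr10:4107856-4109443, chr15:109088786-109090380 and chr3:33761867-33763407, with HFD −log10 q of 6.40, 0.997 and 3.48. At the first, total H3 was 13.4 in control and 6.78 in HFD and pan H4 8.27 and 1.40, at the second neither was listed, and at the third total H3 was 7.48 in control and not listed in HFD, and pan H4 13.0 and 6.18.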

How the data were processed

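Each of the 10 groups (5 antibodies, 2 diets) had 3 libraries and 1 deposited list. Per the study's methods and the submitters' processing notes, the authors aligned reads to rn6 with Bowtie2 and called enriched intervals with MACS2 (versions and options are not given in the sources used here). In the deposited lists the score is 10 times the −log10 q, and the authors' caller also gave −log10 of the p-value and the q-value and the fold enrichment as a ratio over local background. H3K27me3 and H4K16Ac were deposited as broad intervals, the others as narrow intervals with summits. No read counts are used here, so depth was taken from the background pileup implied by the fold enrichment and p-values. Coordinates are rn6, 1-based, and without an annotation of that build no gene was named and the tissue label could not be checked on marker genes.

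Narrow rows of the same interval were merged, keeping the strongest summit's values. Domains were selected and overlaps of 1 bp or more counted with Python 3.11.15, numpy 2.4.6, pandas 2.3.3 and scipy 1.17.1 (figures, matplotlib 3.10.9), and the overlap counting was tested on simulated data. Shares have 95% Wilson and differences 95% Newcombe intervals. The strict threshold was −log10 q of 5. Pooled lists allow no test. Replicate 3 of control total H3, whose title and treatment label disagree, was taken as control from its title.

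Named domains are the 6 highest by control H4K16Ac −log10 q, the 3 highest by HFD H4K16Ac, the 3 highest in each diet for each other antibody, the 3 farthest from H3K4me3, the 3 with the widest and the 3 with the narrowest HFD H4K16Ac, all on placed chromosomes, and those at each limit. Groups of 4 domains were named after their values were seen. The domains and lists were chosen with earlier results of these data known. Alternatives changed the list started from, the H3K4me3 threshold, distance, chromosomes, strength, list threshold, list length and overlap. The width range was the same in all of them.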

Additional observations from a re-analysis of the deposited data

How the results depend on the processing

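No paired analysis was possible because each list pools the 3 libraries of its group, and for the same reason no replicate could be left out. Of 34 alternatives for ratios of HFD over control, 28 moved the ratio by less than 1.5 times, among them lists of equal length, which turned the H3K27me3 ratio from below 1 to 1.31. The ratio for total H3 ranged from 0.846 to 1.03. The ratio for pan H4 went from 1.06 to 2.84 at −log10 q of 5 or more in the lists, and to 0.931 with equal numbers of strongest intervals. The ratio for H3K27me3 went from 0.884 to 0.571 (4 against 7) at the 42 domains of −log10 q of 5 or more, to 0 (0 against 1) with lists cut at 5, to 0.449 (40 against 89) where 50% of the domain had to be covered, and to 45 (45 against 1) with equal numbers of strongest intervals. The number of far H4K16Ac domains in HFD over control went from 0.874 to 1.38 (58 against 42) at −log10 q of 5 or more. The alternatives with equal numbers and with domains started from the HFD list were chosen after seeing the data.

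All 18 alternatives kept the far domains below the near ones in control, and 4 stayed within the interval of the difference. With only H3K4me3 of −log10 q of 5 or more counted, the differences were −9.38 (total H3), −7.63 (pan H4) and −48.0 points (H3K27me3). A distance of 5000 bp gave −20.05 (total H3) and −13.6 (pan H4). The 42 strongest domains gave −13.8, −14.1 and −71.8, lists cut at 5 gave −35.4, −34.2 and −14.7, and 50% coverage gave −21.7, −24.2 and −18.0. The causes were not tested. Without replicates, no difference between diets can be set against the spread between litters, and few H3K27me3 intervals reached −log10 q of 5 at the HFD depth.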
